A study of Sus scrofa with 8 samples.

Results

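Semaphorins are secreted or membrane-bound signalling proteins that share an extracellular sema domain, and plexins and neuropilins are their receptors on the receiving cell. The genes were found by pig Ensembl symbol: semaphorins named by class number and letter, plexins of the A, B, C and D subfamilies, the plexin domain containing genes PLXDC1 and PLXDC2, and the neuropilins NRP1 and NRP2. Of the 24358 gene identifiers in the count table, 33 matched, 20 of them ligands (the semaphorins) and 13 receptors (9 plexins, 2 PLXDC genes and 2 neuropilins). PLXDC1 and PLXDC2 are kept with the receptors for their plexin-like domain, although they are not semaphorin receptors in the usual sense.

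Plexins carry the signal into the cell through a cytoplasmic domain that acts on small GTPases, which changes adhesion and the actin cytoskeleton. Most class 3 semaphorins are secreted and need a neuropilin as the binding partner of a class A plexin, whereas the membrane-bound classes mostly bind plexins directly. The family is best known from axon guidance and blood vessel growth, and it also acts in epithelia, immune cells and stem cells.

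The cells were DOX-hLIF-2i piPSCs, pig induced pluripotent stem cells reprogrammed from embryonic fibroblasts with doxycycline-inducible OCT4, SOX2, KLF4 and c-MYC, and both groups kept these transgenes, doxycycline, LIF and the kinase inhibitors of the medium. IRF-1 overexpressing cells received a piggyBac vector with Flag-tagged IRF1 behind the ubiquitous CAG promoter, control cells received the Flag vector without IRF1, and both were selected with puromycin. The comparison asked how a raised level of IRF-1, a transcription factor of the interferon response, changed the RNA of these cells. RNA-seq libraries were made with oligo(dT) from cells separated from feeder cells by a short plating step, in 2 replicates of overexpressing cells (1 and 3) and 2 of control cells (6 and 8). The sample labels of the series name a different culture system (LCDMV), an adult domestic pig and IRF-1 overexpression for every library, so the assignment of replicates 6 and 8 to the control rests on the study's own description.

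IRF1 itself (ENSSSCG00000014277, chromosome 2) was therefore read first. It had 8206 and 5485 counts in overexpressing replicates 1 and 3 and 55 and 56 counts in control replicates 6 and 8. The overexpressing libraries were far above both controls, 297 ± 47.1 against 3.36 ± 0.225 CPM (counts relative to the library total, scaled by TMM factors; mean ± SD, n = 2), so IRF1 separated the libraries as they were assigned. The log2 fold change was 6.46 (SE 0.21, edgeR adjusted p = 3.65e-05). Whether the table's IRF1 reads came from the transgene or the pig's own gene was not tested.

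Libraries held 24923319 and 20858333 counts in overexpressing replicates 1 and 3, and 15925429 and 17097669 in control replicates 6 and 8. A single count was worth between 0.0403 and 0.064 CPM, and 3 counts, taken as the detection floor, between 0.121 and 0.192 CPM. The 33 genes took between 0.141% and 0.198% of the counts of a library. Mitochondrial genes took 8.62% and 7.57% in overexpressing replicates 1 and 3 and 6.29% and 6.68% in control replicates 6 and 8. Nothing in the labels says that the replicates were separate cultures, so p-values measure only the spread between these samples, which may be technical. With 2 against 2 libraries an exact two-sided permutation test cannot give a p below 0.333, and the tests below therefore come from a model fitted across all genes (edgeR).

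The identity of the cells was read from marker lists. Of 15 genes listed for pluripotent cells 7 had a named row. They summed to 1313 and 1348 CPM in overexpressing replicates 1 and 3 and 1544 and 1709 CPM in control replicates 6 and 8. The DNA methyltransferase DNMT3B had the highest CPM in every library. Per kilobase of exon (RPKM) LIN28A was highest, with 265, 301, 819 and 618 against 95.8, 93.1, 64.3 and 92.3 for DNMT3B in replicates 1, 3, 6 and 8. The list summed to 382 and 423 RPKM in overexpressing and 944 and 769 RPKM in control cells. NANOG, a core pluripotency factor, was close to the floor with 8, 11, 5 and 9 counts in the same order, and POU5F1 and SOX2 were not analysed here. Of the 6 tested genes of the pluripotent list 3 were called lower (LIN28A, CDH1 and ESRRB) and 3 were not called. Over all genes tested 8.61% were called higher and 10.6% lower, and these shares are the background for every marker list. For feeder or other fibroblasts 11 genes summed to 269 and 220 CPM in overexpressing and 352 and 287 CPM in control cells. The microfibril gene FBN1 had the highest mean CPM over the libraries, although the collagen gene COL1A2 was above it in overexpressing replicate 1 (139 against 123 CPM). Per length COL1A2 had the higher mean over the libraries, 15.2 against 14.3 RPKM. The fibroblast genes COL6A3 and LUM were at or under the floor in every library. Of 7 tested genes in the fibroblast list, 1 was called higher (COL1A2) and 4 lower (PDGFRB, DCN, S100A4 and COL1A1), at a median of -1.97 on the log2 scale. DCN had 3 and 1 counts in overexpressing and 19 and 19 in control cells. It had enough counts for the test through the control group alone, in which it was high, so its call is no independent sign of a difference. PDGFRB, a growth factor receptor of mesenchymal cells, was lowest, with 1.13 and 2.98 CPM in overexpressing and 126 and 55.9 CPM in control cells and a log2 fold change of -5.49.

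A gene was called when its edgeR adjusted p was under 0.05 and its log2 fold change at least 1 in size. Of the 33 genes, 30 had enough counts to be tested, and 5 were called higher (16.7%) and 13 lower (43.3%) in IRF-1 overexpressing cells. Over all 13250 genes tested, 8.61% were called higher and 10.6% lower. Of the 28 genes that had enough counts in both groups, 5 were called higher and 12 lower. Groups without overlap were common: in 34.8% of all genes tested both overexpressing libraries were above both controls, and in 33.8% below. The median log2 fold change was -0.63 for the 30 genes, and -0.0016 over all genes tested. The called genes went in both directions, and the share called lower was well above the share over all genes. In a bulk sample, fewer cells of a type and less RNA per cell cannot be told apart.

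Calls were counted apart for ligands and receptors. Of 17 tested ligands 1 was called higher (SEMA4D) and 8 lower, at a median of -0.67 on the log2 scale. Of 13 tested receptors 4 were called higher (NRP1, NRP2, PLXNA4 and PLXNC1) and 5 lower, with a median of -0.60. PLXDC1 was among the 5 lower. Of the 9 plexins 2 were called higher and 4 lower, and both neuropilins were called higher. The single raised ligand is close to the background share, while the lower calls of both groups and the higher calls of the receptors lie above it. The difference between ligands and receptors was not tested. These counts moved when single libraries were left out, with the ranges given below under the processing. SEMA4A and SEMA3E had enough counts in 1 group only, and without them 15 ligands were tested, 1 called higher and 7 lower.

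**Figure D1:**
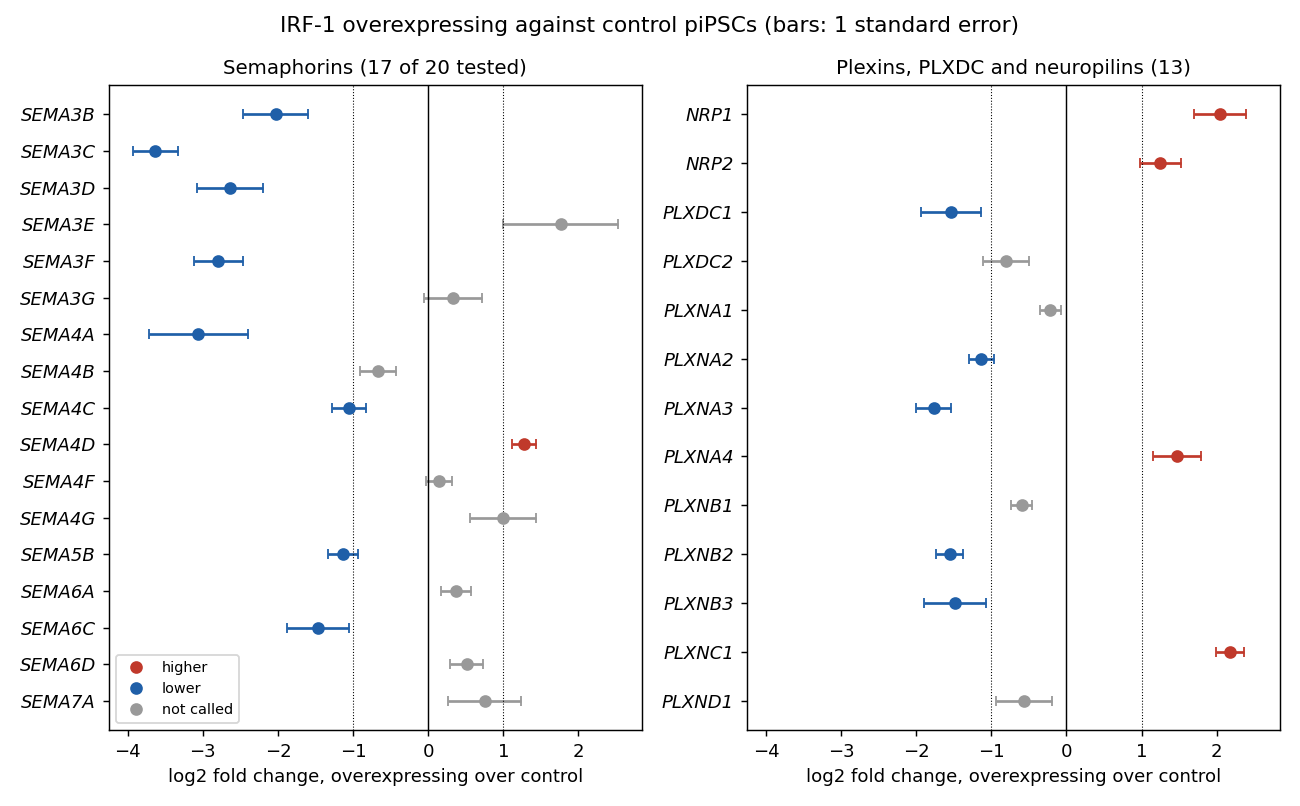
Log2 fold change (x axis) of each tested ligand (left) and receptor (right), with 1 standard error; red marks genes called higher, blue genes called lower and grey genes not called, and dotted lines stand at -1 and 1. SEMA3C, a class 3 ligand, has the lowest value at -3.63, and PLXNC1, a receptor, the highest at 2.18.

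The secreted class 3 semaphorins included the ligand with the lowest value. SEMA3C, SEMA3D, SEMA3F and SEMA3B were called lower out of 6 tested, with a class median of -2.33, and the others were not called. Over all genes tested 10.6% were called lower. Summed per transcript length (RPKM, the CPM per kilobase of exon), the 7 class 3 genes came to 2.83 and 2.99 in overexpressing replicates 1 and 3 and to 16.96 and 13.1 in control replicates 6 and 8. Both control libraries were several fold above both overexpressing libraries, with means of 15.0 ± 2.74 and 2.91 ± 0.116 (SD, n = 2).

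SEMA3C (ENSSSCG00000023784, chromosome 9 from 99251338 to 99433224 of the pig genome), a guidance cue of migrating neural crest cells, had 2.82 and 1.63 CPM in overexpressing replicates 1 and 3 and 29.2 and 26.7 CPM in control replicates 6 and 8. The control libraries lay close together and far above the overexpressing ones, a 12.6-fold difference of the means. The log2 fold change was -3.63 (SE 0.30, edgeR adjusted p = 0.000351). SEMA3F (ENSSSCG00000011398, chromosome 13 from 32641354 to 32673653), which repels axons through NRP2, had 2.50 and 4.76 CPM against 26.4 and 23.6 CPM in the same order of libraries. It was low in both overexpressing libraries and the groups did not overlap, with a log2 fold change of -2.79 (SE 0.32, edgeR adjusted p = 0.00102). Of its exon bases 35.4% are shared with GNAI2, a gene on the same strand that had 6590 and 7728 counts in overexpressing and 14539 and 13157 in control cells, so reads in the shared bases cannot be assigned with certainty.

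SEMA3D (ENSSSCG00000015396, chromosome 9 from 95280192 to 95506651), which guides axons and developing vessels, had 1.21 and 2.40 CPM in overexpressing replicates 1 and 3 and 8.26 and 14.0 CPM in control replicates 6 and 8. Replicates differed within both groups, but every control library was above every overexpressing one, and the log2 fold change was -2.63 (SE 0.44, edgeR adjusted p = 0.00414). SEMA3B (ENSSSCG00000011400, chromosome 13 from 32740381 to 32753286), known as a candidate tumour suppressor, had 7.25 and 6.78 CPM against 42.0 and 15.4 CPM. Control replicate 6 alone was very high, 2.73 times control replicate 8, and it set much of the size. The log2 fold change of -2.03 (SE 0.43, edgeR adjusted p = 0.0111) became -1.13 without that library and was still called. SEMA3B shares 88 exon bases (1.29%) with LSMEM2 on the same strand.

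The remaining class 3 genes were low or not called. SEMA3G, a ligand of NRP2 expressed by vessels, had 2.50 and 2.07 CPM in overexpressing and 1.79 and 1.83 CPM in control cells, with a log2 fold change of 0.33 that was not called. SEMA3E, which binds PLXND1 without a neuropilin, had 35 and 30 counts in overexpressing replicates and 1 and 13 counts in control replicates 6 and 8. Its controls disagreed with each other, and it was above both of them in overexpressing cells, with a log2 fold change of 1.76 (SE 0.76, edgeR adjusted p = 0.124). SEMA3E had enough counts for the test through the overexpressing group alone, in which it was high. A call of this gene is therefore no independent sign of a difference. Without control replicate 8 the value was 4.36 and the gene was called, against 1 control with 1 count, and without control replicate 6 it was 0.93. It was also called when no filter on low counts was used (1.78). SEMA3A, the founding repellent of the class, had 0, 0, 1 and 2 counts in overexpressing replicates 1 and 3 and control replicates 6 and 8, at or under the floor in both groups, so that no fold change is given.

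Neuropilins, the binding partners of class 3 ligands, moved the other way. NRP1 (ENSSSCG00000011102, chromosome 10 from 56244105 to 56430811), a co-receptor for SEMA3A and for vascular endothelial growth factor, had 38.0 and 22.2 CPM in overexpressing replicates 1 and 3 and 9.15 and 5.49 CPM in control replicates 6 and 8. It was higher in both overexpressing libraries than in either control, with a log2 fold change of 2.04 (SE 0.34, edgeR adjusted p = 0.00422). NRP2 (ENSSSCG00000026383, chromosome 15 from 108974684 to 109093525), which prefers SEMA3F, had 99.3 and 57.2 CPM against 27.8 and 38.0 CPM. The groups did not overlap here either, and the log2 fold change was 1.25 (SE 0.28, edgeR adjusted p = 0.0127). Without overexpressing replicate 1 it was 0.81 and NRP2 was no longer called. Per length, the neuropilins together came to 10.5 ± 3.98 RPKM in overexpressing and 3.78 ± 0.314 RPKM in control cells (SD, n = 2), and the ratio of NRP1 to NRP2 was 0.540, 0.546, 0.464 and 0.203 in replicates 1, 3, 6 and 8.

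Both neuropilins were higher in overexpressing replicate 1 than in replicate 3, by 1.72 times for NRP1 and 1.74 times for NRP2. The 12 genes of the neuron marker list summed to 942 and 529 CPM in overexpressing replicates 1 and 3 and to 228 and 261 CPM in control replicates 6 and 8. By CPM the tubulin regulator STMN2 had the highest mean over the libraries. TUBB3, a neuronal tubulin, had the highest CPM in overexpressing replicate 1 and the dendritic protein gene MAP2 in both controls. Per length STMN2 was above MAP2 in control replicates 6 and 8, with 31.8 and 33.3 against 8.69 and 10.4 RPKM. The higher sum of overexpressing replicate 1 came mainly from TUBB3 (351 against 117 CPM in replicate 3) and STMN2 (327 against 155 CPM), and MAP2, GAP43 and NEFL were lower in replicate 1 than in replicate 3. Of the 11 tested genes of the neuron list 6 were called higher and 5 were not called, at a median of 1.56 on the log2 scale. Over all genes tested 8.61% were called higher. SYT1, among the 6, had 223 and 99 counts in overexpressing and 7 and 18 in control cells. It had enough counts for the test through the overexpressing group alone, so its call is no independent sign of a difference. MAP2 went the other way, with 55.7 and 78.1 CPM in overexpressing and 96.1 and 115 CPM in control cells. Its groups did not overlap (edgeR adjusted p = 0.0375), but its log2 fold change of -0.66 was under the fold minimum. RBFOX3, a marker of mature neurons, had 6, 3, 1 and 0 counts in replicates 1, 3, 6 and 8. The part of neuron-like expression in the higher values of the neuropilins, PLXNA4 and PLXNC1 was not tested. GAP43 (log2 fold change -0.24) and NEFL (0.07), genes of growing axons and neurofilaments, overlapped between the groups.

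Class A plexins carry the class 3 signal and went in different directions. PLXNA2 (ENSSSCG00000026412, chromosome 9 from 134584201 to 134796211), a receptor of SEMA3 complexes and of SEMA6A, had 165 and 162 CPM in overexpressing replicates 1 and 3 and 407 and 311 CPM in control replicates 6 and 8. It was lower in both overexpressing libraries, which were nearly equal, with a log2 fold change of -1.13 (SE 0.16, edgeR adjusted p = 0.00227). Without control replicate 6 the value was -0.93 and fell short of the fold minimum. PLXNA3 (ENSSSCG00000023483, chromosome X from 124984198 to 124996277), which acts mainly with NRP2, had 10.4 and 13.4 CPM against 46.8 and 34.2 CPM. It was clearly separated between the groups, with a log2 fold change of -1.77 (SE 0.23, edgeR adjusted p = 0.00156).

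PLXNA4 (ENSSSCG00000021562, chromosome 18 from 16807034 to 17001061), the class A plexin of sensory and sympathetic axons, had 79.0 and 39.9 CPM in overexpressing replicates 1 and 3 and 24.8 and 18.0 CPM in control replicates 6 and 8. It was the class A plexin called higher, but overexpressing replicate 1 stood 1.98 times above replicate 3. The log2 fold change of 1.47 (SE 0.32, edgeR adjusted p = 0.0123) was 0.91 without replicate 1 and then not called. PLXNA1, a receptor for SEMA3 complexes and for SEMA6D, had 156 and 163 CPM in overexpressing and 171 and 199 CPM in control cells, with a log2 fold change of -0.21 (SE 0.14) that did not pass the test.

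**Figure D2:**
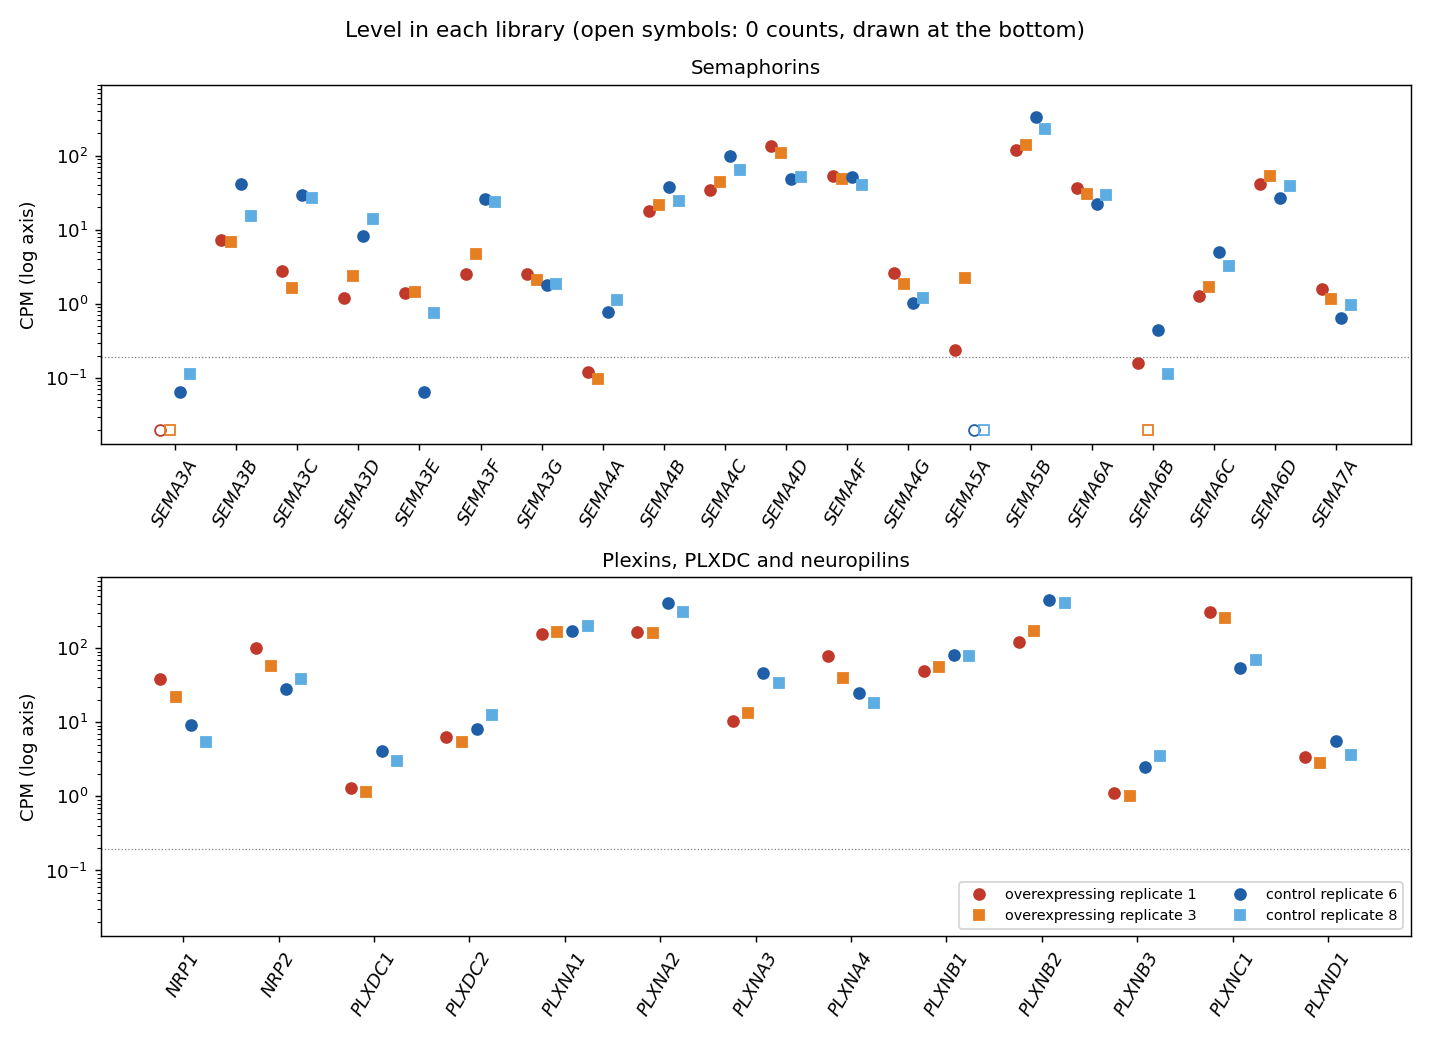
CPM of each of the 33 genes in each library on a log axis, semaphorins above and receptors below; filled symbols are single libraries, open symbols at the bottom are 0 counts, and the dotted line is the highest CPM of the 3-count floor (0.192). Overexpressing and control symbols separate in opposite directions for SEMA3C and NRP1, and overlap for SEMA4F.

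Class 4 semaphorins are transmembrane ligands, most of which act through class B plexins. SEMA4D (ENSSSCG00000009584, chromosome 14 from 957081 to 1078564), first known from T cells and the ligand of PLXNB1, had 133 and 108 CPM in overexpressing replicates 1 and 3 and 47.7 and 51.9 CPM in control replicates 6 and 8. It was the only ligand called higher and the groups were well apart, with a log2 fold change of 1.27 (SE 0.16, edgeR adjusted p = 0.00132). SEMA4C (ENSSSCG00000008197, chromosome 3 from 56750760 to 56760832), a ligand of PLXNB2, had 34.0 and 43.9 CPM against 97.5 and 63.9 CPM. It was lower in overexpressing cells without overlap, at a log2 fold change of -1.05 (SE 0.23, edgeR adjusted p = 0.0121), but the call rested on 2 libraries: the value was -0.86 without overexpressing replicate 1 and -0.72 without control replicate 6, and neither was called.

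SEMA4A, a class 4 ligand of immune and retinal cells, was near the floor in overexpressing cells, with 3 and 2 counts in replicates 1 and 3 and 12 and 20 counts in control replicates 6 and 8. The depth-scaled ratio of control to overexpressing counts was 8.82, with an exact 95% counting interval from 3.41 to 29.0. SEMA4A had enough counts for the test through the control group alone, in which it was high, so its call is no independent sign of a difference. It was called lower with all libraries (edgeR adjusted p = 0.0116), but not without overexpressing replicate 1, overexpressing replicate 3 or control replicate 8, where the fitted log2 fold changes were -3.22, -2.92 and -2.74. The other class 4 genes were not called. SEMA4B had 18.0 and 21.4 CPM in overexpressing and 38.1 and 24.8 CPM in control cells (log2 fold change -0.67, edgeR adjusted p = 0.0723), and 6.58% of its exon bases are shared with CIB1 on the opposite strand. SEMA4F, which is expressed in the nervous system, had 53.3, 48.0, 51.5 and 40.4 CPM in replicates 1, 3, 6 and 8, so the groups overlapped. SEMA4G was lowly expressed, at 2.62 and 1.83 CPM against 1.02 and 1.20 CPM (edgeR adjusted p = 0.127).

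Class B plexins, the receptors of class 4 ligands, were lower or not called. PLXNB2 (ENSSSCG00000035733, chromosome 5 from 390363 to 418324), which also serves as receptor in neural progenitors and epithelia, had 121 and 168 CPM in overexpressing replicates 1 and 3 and 441 and 408 CPM in control replicates 6 and 8. It was low in both overexpressing libraries, with a log2 fold change of -1.56 (SE 0.18, edgeR adjusted p = 0.00102). PLXNB1, the SEMA4D receptor, had 49.2 and 55.5 CPM against 80.5 and 77.6 CPM. The groups were separated and the edgeR adjusted p was 0.0169, but the log2 fold change of -0.60 was under the fold minimum, so it was not called. PLXNB3, a receptor of SEMA5A, had 28 and 21 counts in overexpressing and 39 and 61 counts in control cells. These low counts gave a log2 fold change of -1.48 (edgeR adjusted p = 0.0318), and the call was lost without overexpressing replicate 1 (-1.55), overexpressing replicate 3 (-1.40) or control replicate 8 (-1.21), and with DESeq2 (-1.48).

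The ratio of SEMA4D to its receptor differed between the groups. Per length, SEMA4D stood at 1.88 and 1.35 times the RPKM of PLXNB1 in overexpressing replicates 1 and 3 and at 0.413 and 0.466 times in control replicates 6 and 8. The pair SEMA4C and PLXNB2 was lower on both sides. The marker list for trophoblast had a larger sum in control cells. Its 11 genes summed to 319 and 1173 CPM in overexpressing replicates 1 and 3 and to 15686 and 9622 CPM in control replicates 6 and 8, most of it the keratin KRT8. KRT8 is also expressed by other simple epithelia. Of 7 tested genes in this list 4 were called lower (KRT8, KRT18, TFAP2C and TEAD4) and 1 higher (TFAP2A), against 10.6% lower and 8.61% higher over all genes tested. The transcription factor TFAP2C had 2.37 and 3.17 CPM in overexpressing and 20.5 and 18.6 CPM in control cells, and TEAD4 had 8.94 and 15.8 against 88.5 and 69.7 CPM. Both were thus low in both overexpressing libraries, with log2 fold changes of -2.82 and -2.68. TFAP2A moved the other way, with 30.95 and 42.8 against 2.88 and 2.69 CPM and a log2 fold change of 3.72. GATA2 (-0.05) and GATA3 (0.07) were not called, and the trophoblast factors CDX2 and HAND1 had 0 counts in every library. The part of this list's genes in the lower plexins and class 3 ligands was not tested.

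PLXNC1 (ENSSSCG00000000907, chromosome 5 from 88900245 to 89055742), the receptor of SEMA7A and of viral semaphorins, had 306 and 251 CPM in overexpressing replicates 1 and 3 and 53.4 and 69.5 CPM in control replicates 6 and 8. It was far higher in both overexpressing libraries, by 4.54 times on average, with a log2 fold change of 2.18 (SE 0.19, edgeR adjusted p = 0.000403). Its exons share 353 bases (4.87%) with CEP83 on the opposite strand, which had 723, 590, 409 and 471 counts in replicates 1, 3, 6 and 8. SEMA7A, its membrane-anchored ligand, was sparse, with 39, 24, 10 and 17 counts in the same order, and its log2 fold change of 0.75 (edgeR adjusted p = 0.291) was not called. PLXND1, the SEMA3E receptor of vessels, had 3.38 and 2.84 CPM in overexpressing and 5.63 and 3.60 CPM in control cells and was not called (log2 fold change -0.57, edgeR adjusted p = 0.290).

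Vessel and macrophage lists were read because these receptors act there. The 7 endothelial genes with a row summed to 4.03 and 7.55 CPM in overexpressing replicates 1 and 3 and to 59.97 and 65.9 CPM in control replicates 6 and 8, most of it the angiopoietin receptor TEK. Of 5 tested, 2 were called lower (TEK and TIE1) and 3 were not called, and over all genes tested 10.6% were called lower. TIE1 had 6 and 3 counts in overexpressing and 37 and 19 in control cells. It was tested through the control group alone, in which it was high, so its call is no independent sign of a difference. The defining endothelial genes CDH5 and ERG were at or under the floor in every library. The 7 macrophage genes summed to 42.7 and 33.6 CPM against 180.2 and 127 CPM, mostly AIF1, the gene called lower of the 4 tested. PTPRC and CD14, which define leukocytes and monocytes, were at or under the floor in every library.

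Class 5 semaphorins carry thrombospondin repeats and class 6 are transmembrane ligands of class A plexins. SEMA5B (ENSSSCG00000011872, chromosome 13 from 137455333 to 137586958), which inhibits the outgrowth of retinal neurites, had 119 and 137 CPM in overexpressing replicates 1 and 3 and 336 and 229 CPM in control replicates 6 and 8. It was lower in both overexpressing libraries, with a log2 fold change of -1.14 (SE 0.20, edgeR adjusted p = 0.00509). Control replicate 6 was the higher control, and without it the value was -0.84 and the gene was no longer called. SEMA5A, a ligand of PLXNB3 in neurons, had 6 and 46 counts in overexpressing replicates and 0 in both controls. Against a floor of 3 counts per library it was at least 6.75-fold higher, but this limit rested on overexpressing replicate 3 and was 1.33-fold for replicate 1 alone. The filter on low counts left it out of the main test. It was called higher when no filter was used (edgeR adjusted p = 0.00011) and without overexpressing replicate 1 (0.00634), but not without control replicate 6 (0.0517) or control replicate 8 (0.0547), and without overexpressing replicate 3 it did not pass the filter.

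Among class 6 genes SEMA6C, which is expressed in muscle and brain, had 1.29 and 1.68 CPM in overexpressing and 4.99 and 3.20 CPM in control cells. It was low and separated between the groups, with a log2 fold change of -1.46 (edgeR adjusted p = 0.0329), and the call was lost without overexpressing replicate 1 (-1.26), overexpressing replicate 3 (-1.66) or control replicate 6 (-1.11). Of its exon bases 27.7% are shared with GABPB2 on the opposite strand, which had 288, 221, 86 and 130 counts in replicates 1, 3, 6 and 8. SEMA6A, a ligand of PLXNA2 and PLXNA4, had 36.3 and 30.7 CPM against 22.6 and 29.3 CPM (log2 fold change 0.37). SEMA6D, which acts on PLXNA1, had 41.3 and 52.7 CPM against 27.0 and 38.8 CPM (log2 fold change 0.51), and neither passed the test. SEMA6B did not pass the filter on low counts, with 4, 0, 7 and 2 counts in replicates 1, 3, 6 and 8.

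PLXDC1, a marker of tumour endothelium, had 1.29 and 1.15 CPM in overexpressing and 4.10 and 3.03 CPM in control cells. It was lower in overexpressing cells at low counts, with a log2 fold change of -1.54 (edgeR adjusted p = 0.0239) that was not called without overexpressing replicate 1 (-1.61), overexpressing replicate 3 (-1.46) or control replicate 6 (-1.31). PLXDC2, its close relative, had 6.28 and 5.48 CPM against 8.06 and 12.5 CPM and was not called (log2 fold change -0.80, edgeR adjusted p = 0.0864), although it was called without control replicate 6 (-1.08).

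Levels of different genes were compared per length. Among receptors PLXNC1 ranked first in overexpressing cells with 38.5 ± 5.36 RPKM (SD, n = 2), and PLXNA2 ranked first in control cells with 50.3 ± 9.51 RPKM. In control cells PLXNA2 and PLXNB2 (42.8 ± 2.39 RPKM) did not differ beyond the spread of the libraries. PLXNC1 made up 37.7% and 32.5% of the summed plexin RPKM in overexpressing replicates 1 and 3 and 4.89% and 7.08% in control replicates 6 and 8. PLXNA2 made up 20.6% and 21.3% against 37.8% and 32.2%, and PLXNB2 10.9% and 15.9% against 29.5% and 30.3%. Per length, the highest plexin was therefore PLXNC1 in both overexpressing libraries and PLXNA2, followed by PLXNB2, in both control libraries. By CPM PLXNB2 was above PLXNA2 in control replicates 6 and 8, with 441 and 408 against 407 and 311. Their order in control cells thus depended on the exon lengths used, 9930 bases for PLXNB2 and 7135 for PLXNA2. The plexin sum was 109 ± 3.86 RPKM in overexpressing and 143 ± 10.8 RPKM in control cells.

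**Figure D3:**
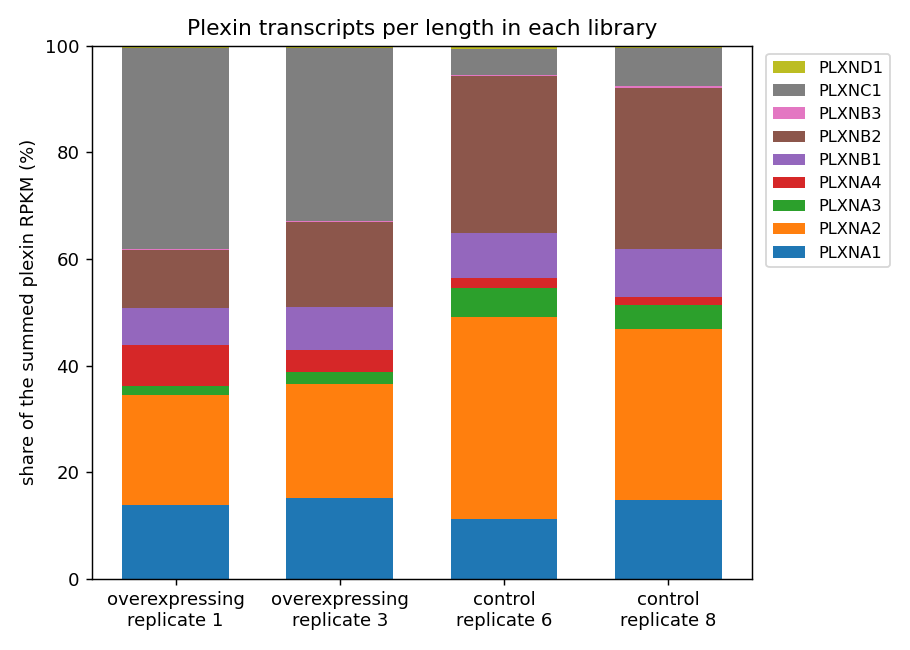
Share of each plexin in the summed plexin RPKM of a library (percent, 1 bar per library, stacked to 100). PLXNC1 takes 37.7% and 32.5% in overexpressing replicates and 4.89% and 7.08% in control replicates, and PLXNA2 and PLXNB2 take the larger shares in the controls.

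Among ligands SEMA5B ranked first in both groups, with 24.6 ± 2.49 RPKM in overexpressing and 54.2 ± 14.4 RPKM in control cells (SD, n = 2). SEMA4D ranked next in overexpressing cells (13.1 ± 1.96 RPKM) and SEMA4C next in control cells (19.7 ± 5.81 RPKM). SEMA4D made up 20.1% and 15.4% of the summed ligand RPKM in overexpressing replicates 1 and 3 and 3.92% and 5.69% in control replicates 6 and 8. Ligands summed to 74.3 ± 2.94 RPKM in overexpressing and 116 ± 23.5 RPKM in control cells, and receptors to 121 ± 7.98 and 149.8 ± 10.01 RPKM. Both sums were lower in each overexpressing library than in either control.

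Other genes of semaphorin signalling were read from a list of 59 co-receptors, GTPases and effectors, of which 55 had a named row and 49 were tested. In IRF-1 overexpressing cells 4 were called higher (8.16%) and 15 lower (30.6%), at a median of -0.39 on the log2 scale. The higher share is close to the background share and the lower one above it. The L1 family of adhesion molecules, which act as co-receptors of neuropilins, had called genes in both directions. L1CAM, which pairs with NRP1, had 108 and 142 counts in overexpressing and 1590 and 990 counts in control cells, and NRCAM, which pairs with NRP2, had 3909 and 2289 against 288 and 477 counts. Neither overlapped between the groups, with log2 fold changes of -3.83 (SE 0.34, edgeR adjusted p = 0.000468) and 2.55 (SE 0.25, edgeR adjusted p = 0.000598). CHL1, a relative of both, had 71 and 65 against 73 and 98 counts and was not called (log2 fold change -0.78, edgeR adjusted p = 0.113).

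Collapsin response mediators, which pass the SEMA3A signal to microtubules, included called genes on both sides. Of the 5 listed, CRMP1 and DPYSL4 were called higher and DPYSL5 lower, and DPYSL2 (log2 fold change 0.33) and DPYSL3 (-0.03), which had the highest counts of the 5, were not called. DPYSL5, named here after its values were seen, was called lower (log2 fold change -1.53), and 4.93% of its exon bases are shared with an unnamed gene on the same strand. CRMP1 had 5288 and 4053 counts in overexpressing and 1701 and 1338 counts in control cells (log2 fold change 1.14), and the value was 0.91 and not called without control replicate 8. DPYSL4 had 80 and 44 against 3 and 7 counts (log2 fold change 3.13, or 3.77 once control replicate 8 was left out). Its controls were too low to pass the filter, so DPYSL4 was tested through the overexpressing group alone, in which it was high. Its call is therefore no independent sign of a difference. Of its exon bases 13.1% are shared with STK32C on the opposite strand, which was also higher in overexpressing libraries, with 732, 474, 61 and 74 counts in replicates 1, 3, 6 and 8. CDK5R1, the activator of the kinase CDK5 downstream of SEMA3A, had 178 and 100 against 24 and 30 counts (log2 fold change 1.88, or 1.57 and not called without overexpressing replicate 1).

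The other called genes named here were chosen by the size of their fold change and were all lower. FLNA, the actin crosslinker filamin A, had 19642 and 22329 counts in overexpressing and 49430 and 46201 counts in control cells (log2 fold change -1.64), and it shares 0.644% of its exon bases with TAFAZZIN on the same strand. The redox enzyme MICAL1, which takes actin filaments apart, had 340 and 466 against 1010 and 859 counts (log2 fold change -1.66), and 25.3% of its exon bases are shared with SMPD2 on the opposite strand. Its relative MICALL2 reached -2.65, SH3BP1, a GTPase regulator that binds plexins, -3.36, and ERBB2, a receptor kinase that associates with class B plexins, -2.22. MICAL3, a relative of MICAL1, was above both controls at 0.93 (edgeR adjusted p = 0.006), under the fold minimum, and MICALL1, a relative of MICALL2, was not called (-0.43). The plexin-binding GTPase RND1 was called at -1.83, and at -1.20 once control replicate 6 was left out. RRAS, a GTPase that plexins inactivate, was called at -1.96, but it was not called without control replicate 6 (-0.98) or without overexpressing replicate 1 (-1.65).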

How the data were processed

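According to the methods, reads were trimmed with trim_galore, mapped to Sus scrofa 11.1 with HISAT2 and counted with featureCounts (submitters' notes: HISAT2 2.0.4, featureCounts 1.6.4). htseq-count is also named. The authors deposited whole-number counts per gene and library, not normalized, with the exon length of each gene. Annotation release, strand setting and treatment of multi-mapped reads are not given in the sources used here, so shared exon bases are stated. Symbols were matched to 14692 of 24358 identifiers.

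From these counts, edgeR 4.0.16 (R 4.3.3; TMM, filterByExpr, quasi-likelihood test) was fitted to the 4 libraries, with Benjamini-Hochberg adjustment over 13250 genes and genes were called at 0.05 and a 1-unit log2 minimum. SE is the log2 fold change divided by the square root of F. CPM and RPKM were scaled by TMM. DESeq2 1.42.0 (the study's tool), limma-voom 3.58.1, glmTreat, other scalings and filters, and leaving out each library were alternatives. The steps were run on simulated counts with a single dispersion (spread between replicates) of 0.0313 for all genes. Spread that differs between genes and changes near the fold minimum were not simulated, so such calls were not checked. Counts varied between the replicates within each group more than sampling alone would give, with chi-square values per degree of freedom of 18.1 (overexpressing) and 31.5 (control). Intervals and floors cover counting error only.

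Named genes were IRF1, every gene found by symbol, and called partner genes, at most 8 in each direction by fold change. DPYSL5, a called partner gene outside those 8, was named after its values were seen. Other genes were named from the marker lists, for shared exons, or as uncalled partner genes after their values were seen. Members and lists were chosen with earlier results of these data known. The ChIP-Seq libraries were not analysed here.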

Additional observations from a re-analysis of the deposited data

How the results depend on the processing

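Of 389 comparisons of the 30 tested genes with an alternative, 356 kept the direction and the side of the threshold, 29 lost the call, 3 gained it and 1 changed sign. That was SEMA4F, which was not called and ranged from -0.016 (without control replicate 8) to 0.33 with a library left out. Of the 18 called genes, 9 were called with each library left out in turn, and 7 under every alternative run (SEMA3C, SEMA3D, SEMA3F, NRP1, PLXNA3, PLXNB2 and PLXNC1). The matching shares over all called genes were not worked out, so these counts have no background beside them. When each library was left out in turn, the calls ranged over all genes from 756 to 1156 higher and 874 to 1548 lower, over ligands from 1 to 2 higher and 5 to 7 lower, and over receptors from 2 to 4 higher and 3 to 4 lower. Testing against a log2 fold change of 1 (glmTreat) gave 611 higher and 603 lower over all genes, 0 higher and 4 lower among ligands, 2 higher and 2 lower among receptors, and 2 higher and 8 lower among partner genes. Without a fold minimum 1842 of 13250 genes were higher. Without a filter on low counts 3 of 20 ligands were called higher, beside 1319 of 17823 genes. SEMA3E and SEMA5A were the ligands added, both with low counts that came mostly from the overexpressing libraries. The causes of these shifts were not tested. No paired analysis was possible because the groups share no replicate numbers. The promoter motif count was not run. With a library left out, the lone sample of its group is assumed to vary like the other group. SEMA3A, SEMA5A and SEMA6B were tested only where the filter was changed or a library left out, and of these SEMA5A was called.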

Other observations

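Several of the genes lie near each other in the pig genome, and neighbours did not always move together. SEMA3F and SEMA3B on chromosome 13 are 66.7 kb apart with 1 gene between them, and both were called lower in IRF-1 overexpressing cells. PLXNB1, 1506 kb from SEMA3F, and SEMA3G, 1821 kb from SEMA3B, were not called. On chromosome 9, SEMA3D, SEMA3A, SEMA3E and SEMA3C follow each other with gaps of 559, 296 and 2309 kb. These gaps hold 1, 1 and 5 other genes. In that row SEMA3D and SEMA3C were called lower, SEMA3A was at or under the floor in both groups, and SEMA3E had more counts in overexpressing cells without being called. PLXNB3 and PLXNA3 on chromosome X, 461 kb apart with 26 genes between them, were both called lower. The PLXNB3 call rested on low counts. It was lost with DESeq2 and glmTreat, and without overexpressing replicate 1, overexpressing replicate 3 or control replicate 8. PLXDC2 and NRP1 on chromosome 10, 1567 kb apart with 8 genes between them, differed. NRP1 was called higher and PLXDC2, with a log2 fold change of -0.80, was not called.

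Within class 4, the most abundant transcript per length changed. SEMA4D made up 40.8% and 34.1% of the summed class 4 RPKM in overexpressing replicates 1 and 3 and 11.9% and 17.4% in control replicates 6 and 8, and SEMA4C 23.4% and 31.2% against 54.6% and 48.3%. The class 4 sum itself was 35.0 ± 0.801 RPKM in overexpressing and 38.1 ± 7.98 RPKM in control cells (SD, n = 2), which did not differ beyond the spread of the control libraries.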
